A study of Zea mays with 12 samples.

Results

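The comparison was between maize endosperms whose female parent was the inbred line B73 and endosperms whose female parent was the inbred line Mo17. All 12 arrays of the series entered it, 6 with B73 as female and 6 with Mo17 as female, and each side held both male lines. With B73 as female there were 3 arrays of the inbred B73 and 3 of the hybrid B73xMo17. With Mo17 as female there were 3 arrays of the hybrid Mo17xB73 and 3 of the inbred Mo17. The groups were chosen by cross alone, with no measured value, and, since the labels do not state the direction of a cross, the line named first in it was read as the mother, as is usual. All endosperms came from field-grown plants at 19 days after pollination, and each array carried RNA from a pool of 36 endosperms, 6 from each of 6 ears. Replicate numbers mark 3 crossing dates on which all 4 crosses were made together, so p-values measure the spread between pools of separate crosses in a single season. Signals are microarray intensities on a linear scale after scaling each array to a common mean.

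Endosperm is the kernel tissue that stores starch and protein for the embryo. It arises when a sperm nucleus joins a central cell with a pair of identical maternal nuclei, so the female line supplies 2 genome doses and the male line 1. The mother plant also surrounds the endosperm, feeds it through the basal transfer layer at its base, and sets the environment in which it grows. Some endosperm genes are imprinted, meaning that the copy from one parent is expressed more than the copy from the other whatever the line. In crosses of this kind a difference between female lines therefore holds the doubled genome dose, imprinting and the influence of the mother plant together, and the design cannot tell them apart.

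The female effect was the mean of both differences between female lines, one with B73 as male (B73 minus Mo17xB73) and one with Mo17 as male (B73xMo17 minus Mo17). It is on the log2(signal + 10.6) scale and is positive where the signal was higher with B73 as female. Of 11747 probe sets tested, 5923 (50.4%) were called at an adjusted p under 0.05 in limma's moderated test, 3018 (25.7%) higher with B73 as female and 2905 (24.7%) higher with Mo17 as female. Most of these differences were small, with a median size of 0.53 among the calls, which is 1.44-fold. At least 2-fold were 1109 probe sets (9.44%), of which 590 (5.02%) were higher with B73 as female and 519 (4.42%) with Mo17 as female. All 6 arrays of one female line lay above all 6 of the other at 2482 probe sets (21.1%), with B73 as female above at 1318 (11.2%) and Mo17 as female above at 1164 (9.91%). Of the 1109, 1075 had the same sign in all 6 pairs of arrays that shared a male line and a crossing date, as had 4853 of the 5923 calls. The calls were made on these same arrays, so this agreement is a description and no separate support.

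The arrays with Mo17 as female tended to be brighter before scaling. Their trimmed means as deposited were 302, 341 and 362 (lowest, median and highest) with B73 as female and 299.7, 394 and 452 with Mo17 as female, a difference of -51.4 (two-sided exact permutation of the female line within each male line, p = 0.065, smallest possible 0.005), and of -69.2 (p = 0.005) without Mo17 replicate 1. The direction of small effects depends on this. Without scaling, 28.2% of 5425 calls were higher with B73 as female and the median over all tested probe sets was -0.18, against 51.0% and 0.01 after trimmed mean scaling, 49.5% after quantile normalization and 52.0% after median centring. Counts of calls in a gene list are therefore given below with their values under another scaling where the counts moved by more than 1 gene. A signal compares transcript levels between lines only as far as the probes match both lines, which was not tested gene by gene. No detection calls were used, so a low signal is given as a signal and not as absence.

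Both differences between female lines could be compared with each other, since they share no array. They do share crossing dates and, in the fit, a common estimate of the spread of each probe set, so their calls are not independent. With B73 as male 3907 probe sets (33.3%) were called, 1952 (16.6%) of them higher with B73 as female and 1955 (16.6%) higher with Mo17 as female. With Mo17 as male 4415 (37.6%) were called, 2339 (19.9%) higher with B73 as female and 2076 (17.7%) higher with Mo17 as female. Both calls were made at 2912 probe sets, which is 74.5% of the calls with B73 as male and 66.0% of those with Mo17 as male. Of the 2912, 1522 were higher with B73 as female in both, 1378 higher with Mo17 as female, and 12 changed sign between males. Across the 11747 probe sets, which are features and no replicates, the effects had a Pearson correlation of 0.74 and a Spearman correlation of 0.80. The test of the difference between them, the effect with B73 as male minus that with Mo17 as male, called 494 probe sets (4.21%), of which 22 (0.187%) were positive and 472 (4.02%) negative. This difference also equals the inbreds minus the hybrids, so a negative call already places the inbreds lower on average. In all 472 the lowest of the 4 genotype means was that of an inbred, which the form of the test makes likely. Of the 472, 456 were also called for the female effect (50.4% of all probe sets were), and the 472 had a median size of 1.71 for it. On the linear signal scale, an alternative chosen after seeing the data, 28 were called, 6 positive and 22 negative, and 26 of these were among the 494 with the same sign.

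**Figure D1:**
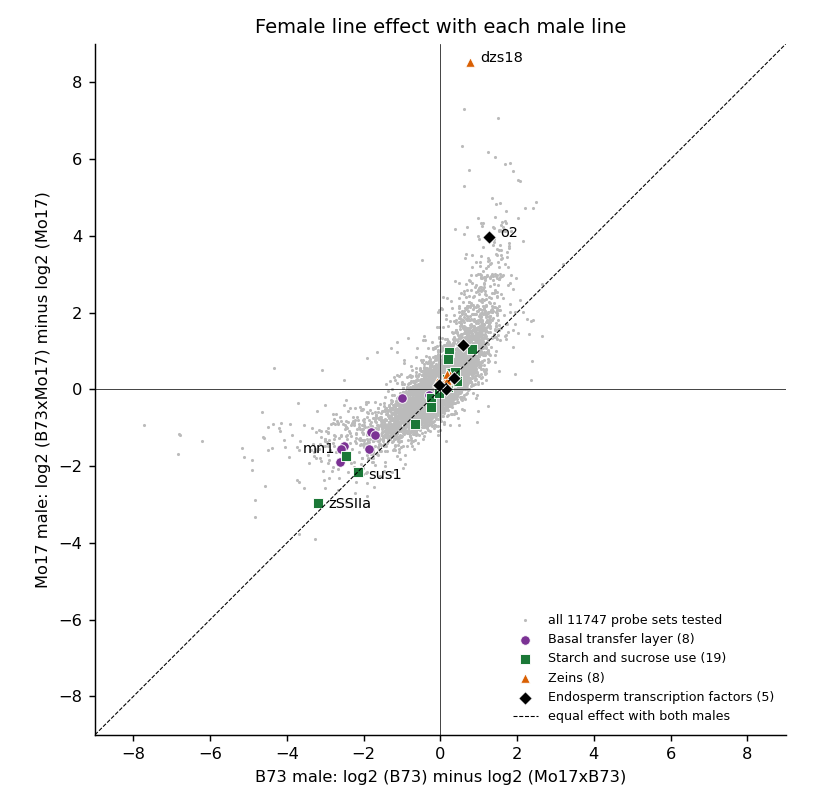
Female line effect with B73 as male (horizontal axis, log2 signal of B73 minus Mo17xB73) against that with Mo17 as male (vertical axis, B73xMo17 minus Mo17), 1 point per probe set, with 4 gene lists in colour and the line of equal effects dashed. The transfer layer genes and zSSIIa, sus1 and mn1 lie at the lower left near the dashed line, while dzs18 and o2 rise steeply above it.

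Genes of the basal transfer layer, the wall-rich cells that take up nutrients from the mother plant, were lower with B73 as female. All 8 tested genes were called in that direction (24.7% of all probe sets were), with a median effect of -1.58 against 0.01 over all probe sets, and in 6 of the 8 no array with B73 as female reached the lowest array with Mo17 as female (9.91% of all probe sets). No male effect was called in the list, where 19.3% of all probe sets had one. The female minus male difference was called negative in all 8, as it was at 1086 of all probe sets (9.24%). The summed signal of the 8 was 2323, 3112 and 4104 with B73 as female (lowest, median and highest array) and 7258, 9928 and 10736 with Mo17 as female. In bulk tissue, fewer cells of a type and less RNA per cell cannot be told apart. On the same array bap-3a and bap-3b were too dim to be tested, with medians of 4.80 and 20.9 with B73 as female and 15.9 and 31.5 with Mo17 as female.

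Within the layer, the bap genes code for small cysteine-rich proteins found at the basal endosperm. In bap2 (betl2) the lowest, median and highest signals were 182, 264 and 443 with B73 as female and 907, 1263 and 1605 with Mo17 as female, an effect of -2.08 (SE 0.14, adjusted p = 1.53e-08). The groups were far apart, and the effect was larger with B73 as male (-2.60) than with Mo17 as male (-1.56), with a difference of -1.04 (SE 0.27, adjusted p = 0.0439). For bap1-b the brighter of its probe sets had 147, 201 and 318 with B73 as female and 869, 1066 and 1275 with Mo17 as female, an effect of -2.25 (SE 0.15, adjusted p = 2.20e-08), and the other gave -2.60 at a lower signal. In bap-1a all 6 arrays with B73 as female, at 87.9 to 151, lay below all 6 with Mo17 as female, at 313 to 556 (effect -1.70, SE 0.15, adjusted p = 3.29e-07).

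The meg family is named for maternally expressed genes, its founding member meg1 being imprinted in this layer. The signal of meg2 was 482, 762 and 1278 with B73 as female and 2475, 3307 and 3853 with Mo17 as female, giving an effect of -2.00 (SE 0.13, adjusted p = 1.47e-08), while its other probe set gave -2.10. Its male effect was -0.12 (adjusted p = 0.59), and the female minus male difference was -1.88 (adjusted p = 2.25e-05). The table of gene names lists MEG6 as a synonym of meg2, and a separate gene there is called meg6. That gene had the smallest effect of the 8, with signals of 585, 735 and 877 with B73 as female and 754, 842 and 979 with Mo17 as female (effect -0.23, SE 0.09, adjusted p = 0.0428), overlapping between the groups, and it was not called after quantile normalization. The remaining markers lay between these: BET1, a small basal layer protein, at -1.46 (SE 0.16, adjusted p = 3.96e-06), betl4 at -1.45 (SE 0.19, adjusted p = 2.22e-05), and betl3, whose groups overlapped, at -0.62 (SE 0.18, adjusted p = 0.00906).

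**Figure D2:**
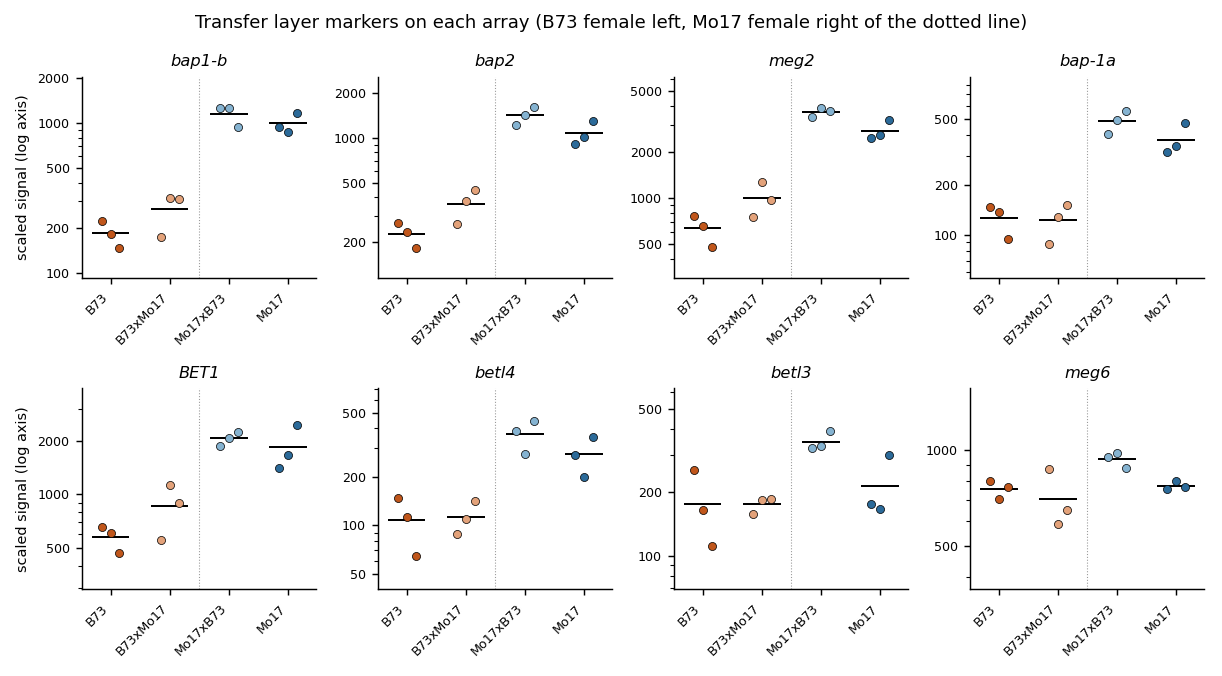
Scaled signal (log axis) of the 8 tested transfer layer genes on each of the 12 arrays, 1 point per array and a bar at the mean of each genotype (n = 3), with B73 as female left of the dotted line. In 6 genes every point on the left lies below every point on the right, while betl3 and meg6 overlap.

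In starch and sucrose use, 3 genes fell by more than 2-fold with B73 as female and none rose by as much. Of 19 genes tested, 7 were called higher with B73 as female and 6 higher with Mo17 as female (25.7% and 24.7% of all probe sets were). No male effect was called in the list, where 19.3% of all probe sets had one. The largest difference was in zSSIIa, which codes for starch synthase IIa, an enzyme that lengthens amylopectin chains and whose loss gives the sugary2 kernel. Its signal was 208, 307 and 596 with B73 as female and 2314, 3128 and 3915 with Mo17 as female, an effect of -3.07 (SE 0.22, adjusted p = 4.74e-08). The hybrids lay with their female line and not between the inbreds, since the effect was -3.19 with B73 as male and -2.95 with Mo17 as male and the male effect was -0.06 (adjusted p = 0.892).

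Sucrose arriving from the mother plant is split by invertases and sucrose synthases before it enters starch. The sucrose synthase gene sus1 had 227, 276 and 761 with B73 as female and 1553, 1649 and 1763 with Mo17 as female, an effect of -2.15 (SE 0.28, adjusted p = 1.96e-05). The highest values with B73 as female came from the first crossing date in both crosses, and the effects on the 3 dates were -1.05, -2.80 and -2.60. The cell wall invertase gene mn1, whose loss gives miniature kernels and which acts at the basal layer, had 15.6, 58.4 and 113 with B73 as female and 187, 273 and 344 with Mo17 as female (effect -2.10, SE 0.26, adjusted p = 1.14e-05, by date -2.33, -1.14 and -2.84). With B73 and Mo17 as male in that order, the effects were -2.15 and -2.15 in sus1 and -2.46 and -1.74 in mn1, and no difference between males was called (adjusted p = 0.998 and 0.644). The male effects were 0.05 and -0.23 and were not called (adjusted p = 0.935 and 0.603).

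The core starch genes differed less, and in both directions. The debranching enzyme gene zpu1 had 2228, 2490.4 and 2743 with B73 as female and 854, 1294 and 1826 with Mo17 as female (effect 0.94, SE 0.17, adjusted p = 4.22e-04), with no overlap. Smaller positive effects were called in wx1, the granule-bound starch synthase, at 0.36 (adjusted p = 1.19e-04), in ss1, a soluble starch synthase, at 0.43 (adjusted p = 0.00355), in sh2, the large subunit of ADP-glucose pyrophosphorylase, at 0.25 (adjusted p = 0.00161), and in ae1, a branching enzyme, at 0.23 (adjusted p = 0.00295). Negative effects of that order were called in sbe1, another branching enzyme, at -0.22 (adjusted p = 0.00875) and in iso2, an isoamylase subunit, at -0.35 (adjusted p = 0.0176). The pyrophosphorylase small subunit gene bt2 (0.14, adjusted p = 0.153), the ADP-glucose carrier gene bt1 (0.08, adjusted p = 0.26) and the sucrose synthase gene sh1 (0.22, adjusted p = 0.0517) were not called. The count of higher genes moved with the scaling, from 7 to 5 after quantile normalization, 9 after median centring and 1 without scaling, and was 10 with the crossing date as a block, whereas the 6 lower calls were made in each.

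Zeins are the prolamins that fill the protein bodies of the starchy endosperm. Of 8 tested zein genes 6 were called higher with B73 as female and none lower (25.7% and 24.7% of all probe sets were), with a median effect of 0.22. A dimmer probe set of the gamma zein gene gz27 was called lower, at -0.48 (adjusted p = 5.35e-04), where the brightest gave 0.21. The count of 6 was 2 after quantile normalization, 1 without scaling and 7 with the crossing date as a block. The summed signal of 11 starchy endosperm markers, zeins among them, was 116587, 117281 and 126166 with B73 as female and 74768, 95656 and 106434 with Mo17 as female, and the part of tissue makeup in these results was not tested. The gamma zein gz50 had 15085, 15292 and 16776 and 10798, 12577 and 14868 with B73 and Mo17 as female (effect 0.30, SE 0.08, adjusted p = 0.00448), and lost its call after quantile normalization (0.07, adjusted p = 0.113) and without scaling (0.11, adjusted p = 0.223). The effects of the other zeins, dzs18 apart, lay between 0.05 in the alpha zein z1C1_12 (adjusted p = 0.796) and 0.29 in the alpha zein z1C2 (adjusted p = 0.00457).

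The delta zein gene dzs18, which codes for a sulphur-rich storage protein, stood far outside this range. Its brightest probe set averaged 16709 ± 1488 in B73, 17729 ± 583 in B73xMo17, 9852 ± 1044 in Mo17xB73 and 40.9 ± 22.6 in Mo17 (SD, n = 3 each), so the level was low only where both parents were Mo17. The female effect was 4.64 (SE 0.15, adjusted p = 1.51e-11), made up of 0.76 with B73 as male and 8.52 with Mo17 as male, and the male effect was 3.79 (adjusted p = 6.29e-10). Its 4 probe sets gave female effects of 1.08 to 4.64, all positive.

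The transcription factor gene o2 (opaque2), an activator of zein genes, followed the same course with a smaller range by the brighter of its probe sets. It had 2519, 3234 and 4733 with B73 as female and 167, 692 and 2254 with Mo17 as female, an effect of 2.62 (SE 0.14, adjusted p = 1.53e-09), and a second probe set gave 0.82. By the brighter probe set the lowest 3 arrays were those of the inbred Mo17, and the effect was 1.27 with B73 as male and 3.97 with Mo17 as male. The second did not set the inbred Mo17 apart in this way. It averaged 1400 in B73, 1453 in B73xMo17, 940 in Mo17xB73 and 714 in Mo17. Its male effect was 0.15 (adjusted p = 0.532) and its difference between males -0.39 (adjusted p = 0.645), neither called. The heterodimer partner gene of o2, ohp1, had equal female and male effects, 0.88 and 0.88, with a difference of -0.01 (adjusted p = 0.984). Of the other 3 factors, Nkd1, which acts in aleurone and starchy endosperm development, was called at 0.33 (SE 0.06, adjusted p = 3.01e-04) by the brighter of its probe sets, while PBF, the prolamin-box factor, at 0.08 (adjusted p = 0.22) and ohp2 at 0.04 (adjusted p = 0.706) were not.

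Genes that the literature describes as imprinted, or that are their close copies, were represented by 4 tested genes. Of these, 2 were called higher with B73 as female and none lower, where 25.7% and 24.7% of all probe sets were. The Polycomb genes mez1 and fie1, both known for maternal expression in endosperm, were higher with B73 as female, and their partners in the genome, mez2 and fie2, did not pass the test. The signal of mez1 was 895, 1126 and 1255 with B73 as female and 589, 630.3 and 768 with Mo17 as female, an effect of 0.73 (SE 0.09, adjusted p = 7.71e-06). That of fie1 was 975, 1159 and 1356 with B73 as female and 644, 751 and 963 with Mo17 as female, an effect of 0.61 (SE 0.10, adjusted p = 9.88e-05). In neither gene did the groups overlap, the male effects were -0.04 (adjusted p = 0.833) and -0.05 (adjusted p = 0.768), and the female minus male differences were 0.76 (adjusted p = 8.29e-04) and 0.67 (adjusted p = 0.00364). The effects of mez2 and fie2 were 0.00 (adjusted p = 0.984) and 0.00 (adjusted p = 0.997).

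Among 33 tested chromatin genes, mez1, fie1 and 8 others were called higher with B73 as female and 6 higher with Mo17 as female, where 25.7% and 24.7% of all probe sets were. The higher ones included hdt103, a plant-type histone deacetylase, with 3089, 3599 and 4139.9 with B73 as female and 2259, 2374 and 2495 with Mo17 as female (effect 0.61, SE 0.06, adjusted p = 2.35e-06), and the histone acetyltransferase gene hag101 (0.58, SE 0.07, adjusted p = 1.54e-05). The lower ones included met2, of the DNA methyltransferase family (-1.08, SE 0.31, adjusted p = 0.0094), and the chromatin assembly genes nfc104 (-0.67, SE 0.11, adjusted p = 1.26e-04) and nfc101 (-0.45, SE 0.08, adjusted p = 2.87e-04). Without scaling the counts were 4 higher and 8 lower. Of 11 histone and replication genes, 5 were called in each direction (1 and 5 without scaling), the replication clamp genes pcna2 (-1.23, SE 0.16, adjusted p = 1.66e-05) and pcna1 (-0.66, SE 0.15, adjusted p = 0.00179) among those lower with B73 as female. In pcna2 the signals were 230.4, 285 and 372 with B73 as female and 450.4, 755 and 959 with Mo17 as female, without overlap. The histone H2B gene his2b5 went the other way, at 2.01 (SE 0.20, adjusted p = 1.50e-06) with overlapping groups, made up of 0.83 with B73 as male and 3.20 with Mo17 as male.

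**Figure D3:**
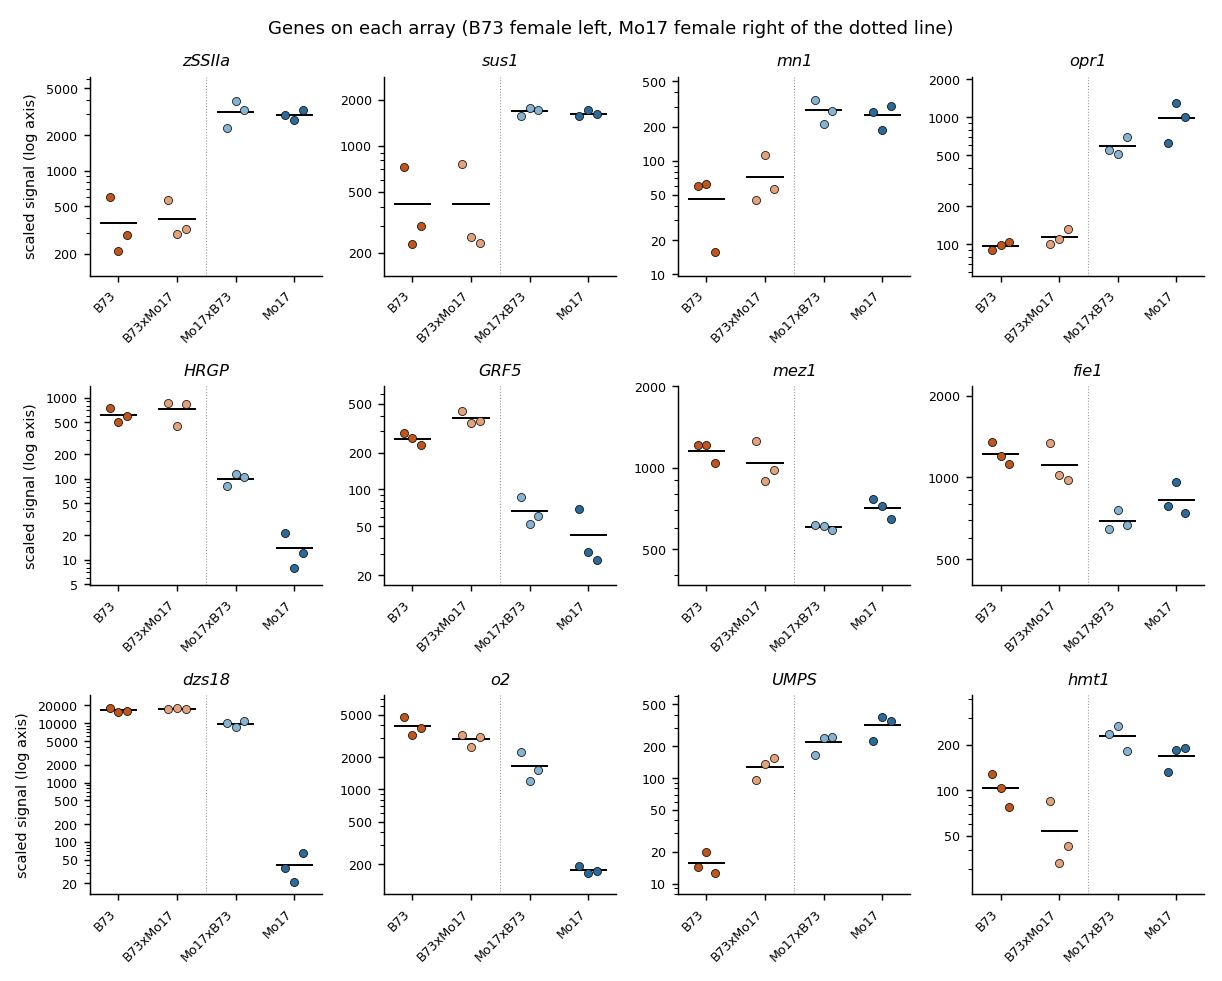
Scaled signal (log axis) of 12 genes on each of the 12 arrays, 1 point per array and a bar at the mean of each genotype (n = 3), with B73 as female left of the dotted line. The hybrids sit beside their female line in zSSIIa, sus1 and mn1, only Mo17 is low in dzs18, and only B73 is low in the probe set shown for UMPS. The brighter probe set of UMPS, not shown, rose more evenly, at 221 in B73, 273 in B73xMo17, 364 in Mo17xB73 and 512 in Mo17.

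Several other of the highest effects were large with either male. HRGP, a hydroxyproline-rich glycoprotein of the cell wall, had 452, 675 and 873 with B73 as female and 7.79, 52.1 and 113 with Mo17 as female, an effect of 3.69 (SE 0.18, adjusted p = 7.69e-10). Its hybrids stood nearer to their female line, at 616 ± 128 in B73, 722 ± 234 in B73xMo17, 100.2 ± 15.9 in Mo17xB73 and 13.9 ± 7.09 in Mo17 (SD, n = 3 each). The male effect of HRGP was also called, at 1.01 (adjusted p = 9.68e-04). GRF5 had 230.2, 317 and 437 with B73 as female and 26.6, 56.6 and 87.0 with Mo17 as female (effect 2.40, SE 0.17, adjusted p = 4.40e-08) and a male effect of 0.04 (adjusted p = 0.914). The sigma factor gene sig3, for plastid transcription, had lower signals, 54.9, 65.1 and 90.2 with B73 as female and 2.75, 9.01 and 19.2 with Mo17 as female (effect 1.99, SE 0.20, adjusted p = 1.52e-06), and likewise a small male effect of 0.21 (adjusted p = 0.522).

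A further group rose with B73 as female and, like HRGP, carried a called male effect of the same sign. It held GTPase at 2.47, the auxin-binding protein gene abp4 at 2.19, the aquaporin gene pip2-5 at 2.16, HMT-2, a homocysteine methyltransferase gene, at 1.90, and MRP2 at 2.98, with male effects of 1.16, 1.12, 1.15, 1.44 and 2.43 in that order. In these 5 genes the inbred Mo17 was the lowest genotype. Every array with B73 as female lay above every array with Mo17 as female, as at 11.2% of all probe sets. The 5 were named for their high female effects, which makes such a separation likely. The beta tubulin gene tub6 had 4 probe sets. Of these, 3 were called higher with B73 as female, at 2.11 with overlapping groups, 1.54 and 0.77, while the brightest gave -0.09 (adjusted p = 0.588).

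Of the tested oxylipin genes, opr1 and aos1 were called lower with B73 as female. The oxophytodienoate reductase gene opr1 had 90.6, 102 and 133 with B73 as female and 512, 665 and 1305 with Mo17 as female, an effect of -2.69 (SE 0.15, adjusted p = 2.68e-09). The allene oxide synthase gene aos1 was at -1.83 (SE 0.23, adjusted p = 1.28e-05) with signals of 4.96 to 41.4 with B73 as female and 53.8 to 167 with Mo17 as female. In neither did the groups overlap, and the proteinase inhibitor gene psei1 was also lower, at -0.68 (SE 0.06, adjusted p = 2.57e-07). Its dimmer probe set gave -0.16 (adjusted p = 0.201). Over the list of oxylipin and inhibitor genes, 1 of 8 was higher with B73 as female and 3 were lower (25.7% and 24.7% of all probe sets were). The lower count was 4 after quantile normalization and 5 without scaling. The higher one was the inhibitor gene psei2 at 0.62, whose dimmer probe set gave -0.16 (adjusted p = 0.307), while opr5, opr7 and opr8 at -0.42, -0.22 and -0.19 were not called.

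Of 21 detoxification and antioxidant genes, 3 were called higher with B73 as female and 10 lower (25.7% and 24.7% of all probe sets were), with a median effect of -0.25. Glutathione transferases attach glutathione to reactive molecules, and 8 of the 10 lower genes and 14 of the 21 tested coded for them. The lower ones were gst2, gst31, gst5, gst41, gst30, gst42, gst37 and gst17, with superoxide dismutase genes making up the other 2. The signal of gst2 was 21.7, 37.8 and 47.3 with B73 as female and 126, 164 and 184 with Mo17 as female, an effect of -1.82 (SE 0.14, adjusted p = 1.27e-07). That of gst31 was 212, 247 and 307 with B73 as female and 492, 700.3 and 943 with Mo17 as female (-1.41, SE 0.12, adjusted p = 3.19e-07), although 1 of its 4 probe sets gave 0.39. The 3 higher genes were the peroxidase gene PRX1 (0.87), a catalase gene (0.66) and apx, an ascorbate peroxidase (0.47).

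Fermentation genes were measured as an oxygen limitation list of 12, in which 1 was higher with B73 as female and 3 were lower (25.7% and 24.7% of all probe sets were). Pyruvate decarboxylase makes acetaldehyde from pyruvate when oxygen is short. Its gene pdc1 had 1289.8, 1525 and 2004 with B73 as female and 3132, 3507 and 4733 with Mo17 as female (effect -1.19, SE 0.11, adjusted p = 8.06e-07), and pdc3 had 625, 713 and 891 with B73 as female and 1052, 1232 and 1374 with Mo17 as female (effect -0.74, SE 0.09, adjusted p = 7.20e-06), with no overlap and no called male effect in either. A dimmer probe set of pdc1 gave -0.29 (adjusted p = 0.105). The third lower gene was GPC1, for a glyceraldehyde-3-phosphate dehydrogenase of glycolysis (-0.60, adjusted p = 8.81e-06). A further decarboxylase gene, pdc2, gave effects of -3.78, 0.01 and 2.70 by its 3 probe sets, so no direction can be given for it. The next enzyme, alcohol dehydrogenase, differed little, with adh1 at 0.23 (adjusted p = 0.0166) and adh2 at -0.06 (adjusted p = 0.775). The call of adh1 as higher was not made after quantile normalization or without scaling, where the list had no gene higher and 6 and 5 lower.

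Protein folding genes of the endoplasmic reticulum, which handle the zeins as they are made, were higher with B73 as female in 2 of 15 and lower in 6 (25.7% and 24.7% of all probe sets were). Without scaling none was higher and 6 were lower. The protein disulfide isomerase genes pdi4 and pdi3 were among the lower ones. For pdi4 the signals were 91.0, 129 and 175 with B73 as female and 224, 371 and 437 with Mo17 as female, an effect of -1.43 (SE 0.12, adjusted p = 1.88e-07), and for pdi3 they were 679.5, 768 and 786 with B73 as female and 1095, 1117 and 1184 with Mo17 as female, an effect of -0.58 (SE 0.06, adjusted p = 2.20e-06). The chaperone gene bip1 was called at -0.25 (adjusted p = 0.0134), and the bright isomerase gene pdi at 0.01 was not (adjusted p = 0.902). Of 8 heat shock genes all were called, 4 in each direction against the same shares, from hsp22, with 129.9, 180.3 and 202 with B73 as female and 336, 518 and 1060.0 with Mo17 as female (effect -1.66, SE 0.24, adjusted p = 4.45e-05), to hsp18a at 0.97. The bright gene hsp70-4 was higher with B73 as female, at 4349, 4918 and 5858 against 2992, 3302 and 3472 with Mo17 as female (effect 0.60, SE 0.05, adjusted p = 5.34e-07).

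The remaining lists had calls in both directions, to be read against the same 25.7% higher and 24.7% lower. Of 5 genes of amino acid metabolism, 3 were higher with B73 as female, with HMT-3 at 0.72 (SE 0.07, adjusted p = 8.67e-07) and lkrsdh1, for lysine breakdown, at 0.60 (SE 0.17, adjusted p = 0.00732), and 2 lower, the glutamine synthetase gene gln2 at -1.25 (SE 0.16, adjusted p = 1.85e-05) and the methyltransferase gene hmt1. Of 12 ribosomal protein genes, 6 were higher and 2 lower (1 and 3 without scaling), with rpl30 at 0.89 (SE 0.10, adjusted p = 6.45e-06), and rpl39 lower by both of its probe sets but unequally, at -1.89 and -0.69. Among 12 cytoskeleton genes, 4 were higher and 2 lower (1 and 3 without scaling), with the beta tubulin gene tub7 at 0.61 (SE 0.05, adjusted p = 5.02e-07) and the gamma tubulin gene tubg1 at -1.47 (SE 0.10, adjusted p = 2.86e-08). The 16 cell wall genes split into 5 and 5. Higher with B73 as female, next to HRGP, were the expansin gene EXPA5 at 1.16 (SE 0.19, adjusted p = 1.26e-04) and the cellulose synthase gene CesA-4 at 1.08 (SE 0.14, adjusted p = 1.42e-05). Lower were the cellulose synthase genes cesa2 at -0.67 (SE 0.15, adjusted p = 0.00161) and cesa6 at -0.63 (SE 0.09, adjusted p = 2.89e-05). One gene outside the lists, UMPS, for pyrimidine synthesis, was lower with B73 as female at -2.17 (SE 0.16, adjusted p = 4.83e-08) by one probe set and -0.78 by its other.

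**Figure D4:**
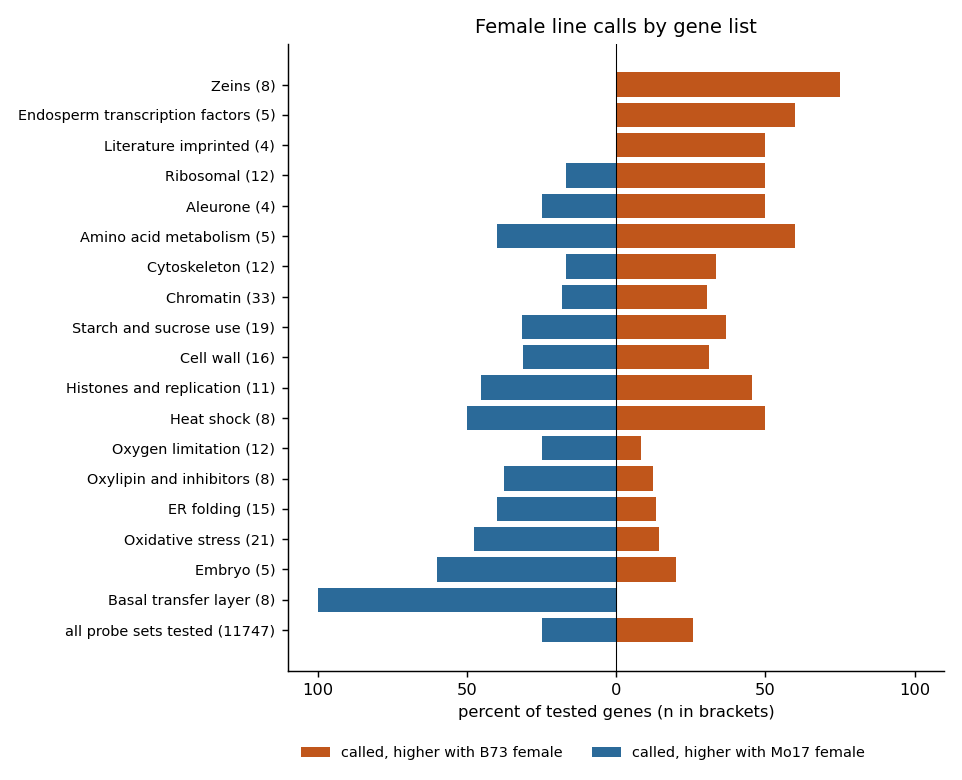
Percent of tested genes called higher with B73 as female (to the right) or with Mo17 as female (to the left) in each gene list of at least 4 tested genes, with all 11747 tested probe sets at the bottom. All 8 transfer layer genes are on the Mo17 side, the zeins are on the B73 side, and all probe sets split 25.7% against 24.7%.

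Markers of other tissues in the pool moved with the female line as well. Of 5 embryo markers, 1 was higher with B73 as female and 3 were lower (25.7% and 24.7% of all probe sets were). The embryo globulin gene glb1 had 43.1, 109 and 309.8 with B73 as female and 347, 529.9 and 609 with Mo17 as female, an effect of -2.11 (SE 0.34, adjusted p = 1.43e-04), with -0.94, -2.75 and -2.63 on the 3 crossing dates, and the oleosin gene ole1 was at -1.27 (SE 0.29, adjusted p = 0.00226) with overlapping groups. The globulin gene glb3 went the other way at 10220.0, 10846 and 11608 with B73 as female against 5552, 7043 and 9014 with Mo17 as female (effect 0.64, SE 0.07, adjusted p = 5.64e-06), far brighter than the rest. The sum over the embryo markers without glb3 was 481, 714 and 1736 with B73 as female and 1513, 1777 and 2319 with Mo17 as female, and with it 10701, 11513 and 12969 and 7367, 8865 and 10734 in the same order. EMB5, glb2 and lec1 were too dim to be tested.

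Of 4 genes of the aleurone, the outer cell layer of the endosperm, per-1 was lower with B73 as female and PLTP and cr4 were higher. Of all probe sets, 24.7% were called lower and 25.7% higher. The peroxiredoxin gene per-1, expressed in embryo and aleurone, had 69.0, 105 and 379 with B73 as female and 559, 615 and 739 with Mo17 as female (effect -2.07, SE 0.33, adjusted p = 1.37e-04), again smaller on the first date (-0.74, -2.79 and -2.68). PLTP, a lipid transfer protein gene, was uneven within both groups, from 142 to 1877 with B73 as female and 35.9 to 888 with Mo17 as female (effect 1.25, SE 0.46, adjusted p = 0.0371), and its other probe set gave 1.02 (adjusted p = 0.0798). The receptor kinase gene cr4 at 0.32 (SE 0.10, adjusted p = 0.0173) lost its call without scaling (adjusted p = 0.398). The summed signal of per-1, PLTP and vp1 was 275, 527 and 2214 with B73 as female and 626, 918 and 1650.3 with Mo17 as female.

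Of 3 tested markers of green or maternal tissue, psaH, a photosystem I subunit gene, was the one called (25.7% of all probe sets were called higher). It was at 0.74 (SE 0.17, adjusted p = 0.00241) with signals of 58.7 to 85.4 with B73 as female and 20.8 to 64.9 with Mo17 as female. The light-harvesting gene lhcb6 was at -0.09 (adjusted p = 0.642), and at 0.66 (adjusted p = 0.0279) by a dimmer probe set. The gene P was at 0.01 (adjusted p = 0.981), and at -0.73 (adjusted p = 0.0221) by its other probe set. The single tested marker of the embryo surrounding region, esr2, had 50.0, 59.2 and 135 with B73 as female and 69.4, 117 and 274 with Mo17 as female and an effect of -0.72 (SE 0.30, adjusted p = 0.0564). This was not called, but it was called with the crossing date as a block (adjusted p = 0.0257), without scaling (adjusted p = 0.0127) and when any of 3 arrays was left out. The part of embryo, aleurone or transfer layer content in the effects of other genes was not tested.

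The male effect, the mean of B73 and Mo17xB73 minus the mean of Mo17 and B73xMo17, shares all 12 arrays with the female effect and is given beside it. It was called at 2262 probe sets (19.3%), 1155 (9.83%) higher with B73 as male and 1107 (9.42%) higher with Mo17 as male, and at least 2-fold at 365 (3.11%). The female and male effects differed from each other, in the test that equals B73xMo17 minus Mo17xB73, at 2353 probe sets, 1267 (10.8%) positive and 1086 (9.24%) negative. Of the 24 genes with the highest and lowest female effects, 14 had a called male effect (that of opr1 at an adjusted p of 0.0499), and in each of these it had the sign of the female effect. For zSSIIa, GRF5, bap1-b, sus1, mn1, glb1 and per-1 the male effect lay between -0.23 and 0.08.

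**Figure D5:**
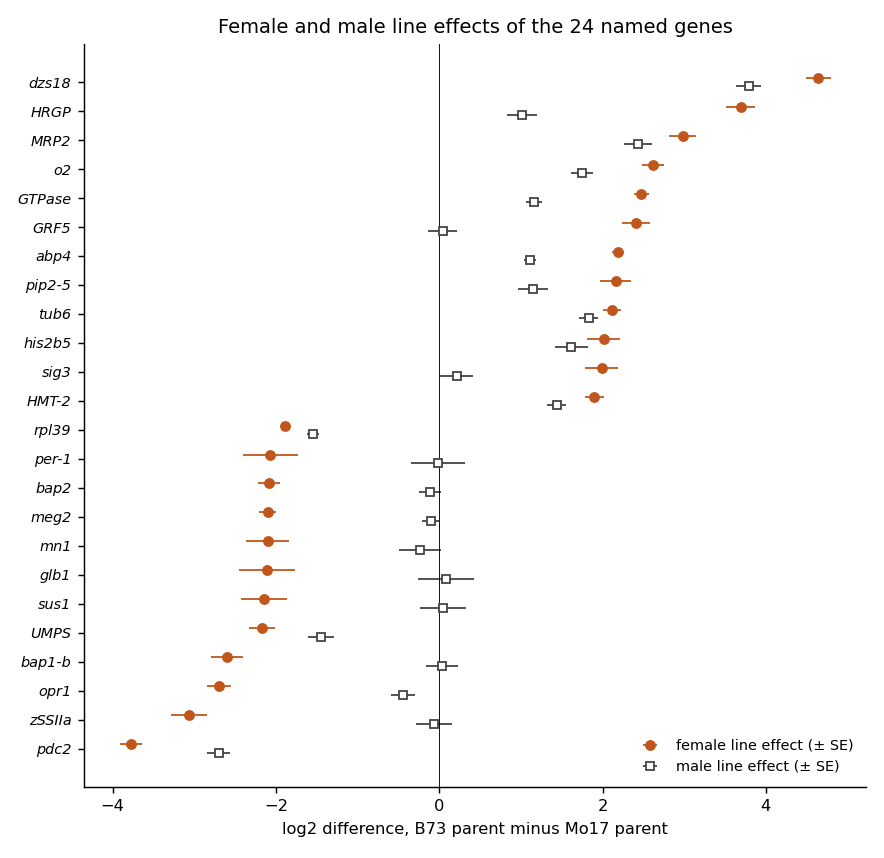
Female effect (filled circles) and male effect (open squares), each with its SE, as log2 differences of B73 minus Mo17 parents for the 12 highest and 12 lowest named genes. Among genes higher with B73 as female, GRF5 and sig3 have male effects near 0, and among those lower, zSSIIa, sus1, mn1, glb1, per-1 and the bap and meg genes do.

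In a few genes a called male effect opposed the called female effect. The clearest was hmt1, a homocysteine methyltransferase gene, with 32.7, 81.2 and 128 with B73 as female and 131, 187 and 264 with Mo17 as female. Its female effect was -1.31 (SE 0.19, adjusted p = 4.27e-05) and its male effect 0.65 (adjusted p = 0.0241), so that B73xMo17 was lowest and Mo17xB73 highest. The plastid gene ij1 (iojap) had 0.59 (adjusted p = 6.11e-04) and -0.44 (adjusted p = 0.0135) for female and male, and the calmodulin gene CaM1 -0.39 (adjusted p = 0.00721) and 0.36 (adjusted p = 0.0268). The plastid ribosomal protein gene prpl35-1 at 0.35 (SE 0.08, adjusted p = 0.00163) lost its female call without scaling (adjusted p = 0.267). Those of obf3.2, a bZIP factor gene (0.46, SE 0.16, adjusted p = 0.0278), and frk2, a fructokinase gene (-0.44, SE 0.16, adjusted p = 0.0382), were lost in 8 and 10 of the alternative settings. A dimmer probe set of obf3.2 had a female effect of 1.20 (adjusted p = 7.23e-07) and a male effect of 0.13 that was not called (adjusted p = 0.494).

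The size of the female effect depended on the male in some genes. Among the negative differences between males, those with the smallest p-values in named genes were those of dzs18 at -7.76 (SE 0.31, adjusted p = 1.01e-09), pdc2 at -4.85 (SE 0.28, adjusted p = 3.58e-08) and rpl39 at -2.64 (SE 0.14, adjusted p = 1.54e-08). Other probe sets of pdc2 gave -3.29 (adjusted p = 2.04e-07) and -0.04 (adjusted p = 0.964). The second probe set of rpl39 gave -0.37 (adjusted p = 0.383), and the values below are those of the first. In rpl39 the effect was -3.20 with B73 as male and -0.57 with Mo17 as male, and the signals were 475, 526 and 554 in the inbred B73, 3543, 3624 and 4382 in B73xMo17, 4623, 4657 and 5308 in Mo17xB73 and 5551, 5649 and 5857 in the inbred Mo17, so the inbred B73 stood apart. Positive differences were few. They were led by pdi4 at 1.04 (SE 0.24, adjusted p = 0.0181), the ferritin gene fer1 at 0.75 (SE 0.17, adjusted p = 0.0167) and the adenine nucleotide carrier gene ANT-G2 at 0.72 (SE 0.14, adjusted p = 0.00738). In fer1 the effect was -0.18 with B73 as male and -0.92 with Mo17 as male, and in ANT-G2 it was 0.75 and 0.02, so each was called with a single male. In ANT-G2 the female call was lost without scaling (0.19, adjusted p = 0.253).

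Most probe sets have no gene name in the annotation used, and the largest effects without a name were of like size. The highest effect among them was 4.28, at a probe set with signals of 2589.8 to 5023 with B73 as female and 7.21 to 1845 with Mo17 as female. The next was 3.86, with 756 to 1295 and 0.686 to 379 with B73 and Mo17 as female. The lowest was -4.34, at a probe set with 3.48 to 3563 with B73 as female and 3674 to 7715 with Mo17 as female, followed by -4.27 at one with 1.28 to 715 and 1386 to 2399. In each of the 4 the lowest values belonged to an inbred, Mo17 in the first pair and B73 in the second.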

How the data were processed

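Signals came from 12 single-colour Affymetrix maize arrays, 1 per pool of 36 endosperms. The deposited intensity values, 1 per probe set and array, were produced by the authors, who used MAS5 according to the submitters' processing notes. The sources used here give neither its version nor its scaling target. Arrays were scaled to a common trimmed mean (2% at each end) of 363. Of 17621 probe sets that were not Affymetrix controls, the dimmest 33.33% by mean over all arrays were left out, which left 11747. The log2 of signal plus 10.6 (the 20th percentile of scaled values) was fitted with limma 3.58.1 in R 4.3.3, with 4 genotype means, no block, eBayes with a mean-variance trend and 8 residual degrees of freedom. Folds on that scale understate changes at low signals. All tests were two-sided, with Benjamini-Hochberg adjustment over the tested probe sets and a threshold of 0.05. The steps were tested on simulated data, in which 91.5% of differences between males of log2 2 were recovered.

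Gene names came from the platform annotation, updated through a RefSeq gene table of the B73 assembly. The annotation gave 1 gene for 1452 of 17734 probe sets, several genes for 1 and no gene for 16281, and 847 tested probe sets had a name. Each list took a gene's brightest tested probe set, and the list of organelle-encoded genes matched no gene. Probe sets ending in s_at, x_at or a_at can bind related transcripts, so levels within the zein, bap, meg and gst families are uncertain. Named genes were the 12 highest and 12 lowest effects among called probe sets with 1 gene and the same sign in all 6 same-numbered pairs, the 2 smallest p-values of each list, the 2 highest and 2 lowest unnamed probe sets, and the 3 in each direction with the smallest p for the difference between males or with the largest female effect opposed by a called male effect. Others are examples chosen after their values were seen. Members and lists were chosen with earlier results of these data known. Lists are described by counts and medians, with no test of the list.

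Arrays with the same replicate number come from crosses of the same date, per the labels' protocols. They were paired for the sign counts and effects by date, and blocked in an alternative fit. The main fit had no block, so its p-values leave this pairing out. Deviations from genotype means correlated at 0.05 to 0.41 between same-numbered arrays (18 pairs) and at -0.31 to 0.15 between others (36 pairs). Deviations cancel within each genotype, so the range between others is partly set by that between same-numbered arrays. Within a genotype arrays correlated at 0.979 to 0.993 across probe sets. Alternatives were other scalings, filters, constants and variance priors, an additive model, only the groups compared, the replicate block, leaving out each array, and a linear scale chosen after seeing the data. Sequences and promoter motifs were not analysed here.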

Additional observations from a re-analysis of the deposited data

Results flagged for a closer look

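For 24 named probe sets the female effect differed between the males in limma's test of the difference (the effect with B73 as male minus that with Mo17 as male, adjusted p under 0.05). Those higher with B73 as female gave differences of -7.76 in dzs18, -2.70 in o2, -2.40 in HRGP, -2.37 in his2b5, -2.29 in MRP2, -2.19 in tub6, -2.18 in HMT-2, -1.60 in pip2-5, -1.56 in GTPase, -1.51 in abp4 and -1.13 in CesA-4, and 0.72 in ANT-G2. Probe sets lower with B73 as female gave -4.85 in pdc2, -2.64 in rpl39, -1.88 in UMPS, -1.04 in bap2, -0.85 and -1.05 by both probe sets of meg2, 0.75 in fer1 and 1.04 in pdi4. The other probe sets of pdc2 had female effects of 0.01 and 2.70, so no direction holds for that gene. Second probe sets of o2, rpl39 and UMPS gave differences of -0.39, -0.37 and 0.19 (adjusted p = 0.645, 0.383 and 0.76). Those of CesA-4 and pdi4 gave -1.47 and 0.77 (adjusted p = 0.077 and 0.356), and none of these was called. All probe sets of dzs18 and HRGP were called, and those of tub6 and pdc2 were mixed. Of the probe sets without a gene name, those with the highest and second highest female effects gave -5.58 and -4.09, and those with the lowest and second lowest gave -6.79 and -5.15. Differences between males in these genes are on the log2 scale, on which 4.21% of all probe sets were called. On the linear scale 28 of 11747 probe sets were called. Several of the 24 were named for a small p in this test and others for their female effect. Their number is therefore partly set by that choice.

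A single array stood apart from the other 5 of its female line in 3 of 128 groups of 6, by Dixon's test at its 95% critical value, where chance flags about 1 group in 20. All 3 were arrays of the inbred B73. They were replicate 3 for gst2, at 21.7 where the median with B73 as female was 37.8, replicate 2 for hsp22, at 129.9 where that median was 180.3, and replicate 1 for CesA-4, at 114 where it was 80.3.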

How the results depend on the processing

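The count of 5923 female calls was within 1.5 times under every alternative run, at 5336 to 6015 when 1 array was left out. Without scaling, the calls higher with B73 as female fell to 1531 in the female effect, 698 with B73 as male and 1284 with Mo17 as male, and male calls to 1416 (751 higher with B73 as male, 665 with Mo17). Same-numbered arrays share a crossing date. With the replicate block there were 6457 female and 2837 male calls, and 645 for the difference between males (45 positive, 600 negative). Positive differences were few and unstable, at 13 without the variance trend, 3 without scaling and 7 to 35 when 1 array was left out (7 without B73 replicate 2, 35 without Mo17 replicate 1, against 22). On the linear scale, chosen after seeing the data, that test called 28 (6 and 22). The brightness difference was -69.2 to -38.9 when 1 array was left out and had a p of 0.005 only without Mo17 replicate 1. Of 61 named probe sets called, 55 kept their call in every setting and none changed sign. The cause of these changes was not tested. Precision is limited by how many arrays there are, the median SE being 0.11 for the female effect and 0.15 with 1 male line, and simulated 2-fold female effects were recovered at 92.5%.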

Other observations

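A few starch, embryo and aleurone genes had smaller female effects on the first crossing date, a pattern picked out after their values were seen. The effects on the 3 dates were -2.16, -3.66 and -3.38 in zSSIIa, -1.05, -2.80 and -2.60 in sus1, -0.94, -2.75 and -2.63 in glb1 and -0.74, -2.79 and -2.68 in per-1, all negative on every date. Among the 8 transfer layer genes the effect was smallest on the first date in 3, with -0.02, -0.46 and -0.22 in meg6, -1.95, -1.99 and -2.30 in bap2 and -0.24, -0.42 and -1.20 in betl3, and smallest on the second date in the other 5.

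Some listed genes were left out of the tests for low signal, and their values are given without a test. The starch synthase gene zSSIIb had medians of 37.6 with B73 as female and 6.27 with Mo17 as female, the reverse of zSSIIa. The cell wall invertase gene incw1 had medians of 13.1 with B73 as female and 31.7 with Mo17 as female, the order seen in mn1. Among tested probe sets, the share called for the female line was 37.4% in the dimmest and 56.2% in the brightest of 5 equal groups by mean signal, whereas the share called at 2-fold or more was 10.6% in the dimmest and 5.74% in the brightest.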
